A study of Mus musculus and blank sample with 91 samples.

Results

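Verrucomicrobiaceae is a family of Gram-negative bacteria whose member in the mouse intestine is Akkermansia muciniphila. Its members here were the amplicon sequence variants (ASVs, distinct sequences that the read processing resolved) that the deposited taxonomy places in this family. They numbered 38 of 2295 ASVs. All 38 carried the genus name Akkermansia and the species name Akkermansia muciniphila, and their counts were summed in each sample. Membership follows from the taxonomy alone and not from the counts.

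Akkermansia muciniphila lives in the mucus layer of the intestine and uses mucin glycans and the mucin protein as its source of carbon and nitrogen. Its enzymes release sugars and sulfate from the mucin chains, and its fermentation yields acetate and propionate, on which neighbouring bacteria can feed. The family is transferred between mice that share a cage through coprophagy, and its share of the fecal community is known to respond to diet, antibiotics and inflammation.

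Fecal pellets of female C57BL/6 mice (C57BL/6J in the study's methods), 8 weeks old at purchase, served for 16S rRNA gene amplicons (variable regions V3-V4) at -2, 8, 14, 19 and 29 days post immunization (dpi). Naive mice received no treatment. CFA mice received Complete Freund's Adjuvant without the antigen. EAE mice received the MOG35–55 peptide in this adjuvant, followed by pertussis toxin, which induces experimental autoimmune encephalomyelitis, a model of multiple sclerosis that starts from immunization with a myelin peptide. By the labels, the toxin is named for the EAE group and the CFA group received the adjuvant alone, so CFA mice differ from EAE mice in antigen and toxin together. At -2 dpi no group had yet been treated. Each group held 6 mice per day. EAE at 14 dpi held 5 samples. CFA mouse 548 had no counts at all at 29 dpi and that sample was dropped, which leaves 30 naive, 29 CFA and 29 EAE samples. Mice were housed 2 to 3 per cage and the treatment was assigned by cage. No label gives the cage, so cage and group cannot be told apart in any comparison below. Naive and CFA mice keep 1 number over the days. EAE mice have other numbers in the labels from 14 dpi on, and only the deposited sample table joins these to the earlier ones, so the identity of the EAE animals over the days is uncertain.

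The totals ran from 9202 to 102437 counts per sample, with a median of 64586. A share is given as the percent of a sample's total count, and a count of 0 is set against a limit of 3 counts, which is at most 0.0326% in any sample. Such limits reflect counting error alone, because PCR copies of 1 molecule are read more than once. Percents add up to a whole in each sample, so a share can move because other families moved, and these data hold no measure of total bacteria.

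The family was found in 45 of 88 samples and in none of the CFA samples. Samples fell into carriers with a high share and samples with no count. Carriers held between 0.122% and 31.9%, with a median of 9.11%. The lowest carrier, EAE mouse 556 at -2 dpi, held 61 counts, and the next lowest held 2.61% from 1570 counts. Across all 88 samples the family ranked 6 of 26 by mean share, at 6.13%. The median total was 64219 in carriers and 64953 in samples without the family, most of which were CFA samples. Among naive mice it was 66788 in the 25 carriers and 51771 in the 5 samples without the family, whose lowest total was 33356. The shallowest library, EAE mouse 555 at 8 dpi, had 9202 counts in 4 ASVs and no count of the family. All 45 carriers were still found when every sample was thinned to 9202 counts. Shares of their size are readily found at that depth, so the thinning says nothing about the samples without a count.

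The absence from CFA mice was complete. The 29 CFA samples of 6 mice held 0 of 1873540 counts, which allows a share of up to 0.000160% over the pooled counts and of 0.00319% to 0.00962% in single samples. Of the 11 families with a mean share of at least 1%, Verrucomicrobiaceae was the 1 family with no count in any CFA sample. In all, 6 of 26 families had none there. Among these was Peptococcaceae, found in 20 naive and 18 EAE samples, and at -2 dpi in 3 naive and 3 EAE mice. By edgeR's quasi-likelihood test over 23 families, Peptococcaceae too was lower in CFA mice on all 5 days. Adjusted p ran from 0.00214 to 0.016 against naive and from 0.00498 to 0.0129 against EAE.

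**Figure D1:**
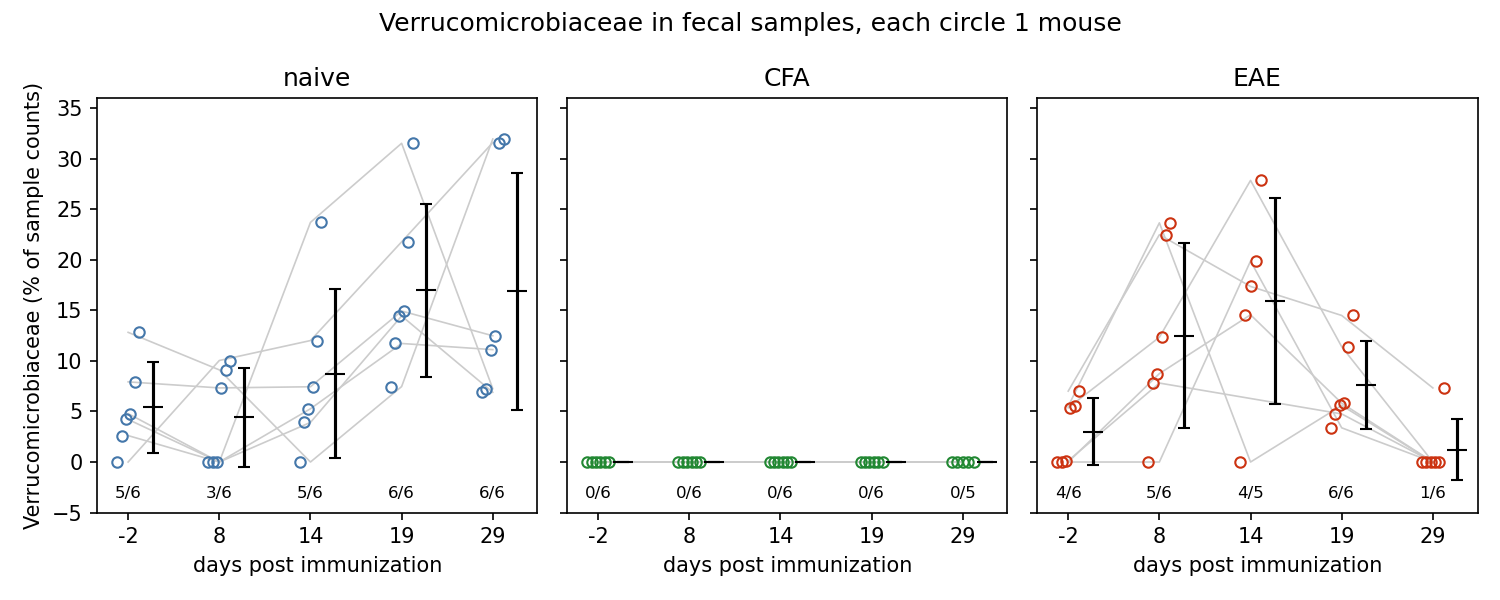
Share of Verrucomicrobiaceae as percent of the sample's counts (y) by day post immunization (x) in naive, CFA and EAE mice. Each circle is 1 sample, grey lines join the samples of 1 mouse by the number in the deposited sample table, black bars give the mean ± SD, and the figures at the bottom give mice with the family over mice sampled. CFA mice stay at 0 on every day, naive mice reach means of 17.0% and 16.9% at 19 and 29 dpi, and EAE mice go from a mean of 15.9% at 14 dpi to 1.22% at 29 dpi, where 1 of 6 mice carried the family.

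Before immunization, the family was already unevenly spread over the groups that were later treated. At -2 dpi, 5 of 6 naive mice carried it, at a lowest of 0%, a median of 4.50% and a highest of 12.8%. In the mice later given EAE, 4 of 6 carried it, at 0%, 2.74% and 7.01% for the lowest, median and highest. None of the 6 mice later given CFA held a count. The ranges of naive and EAE mice overlapped, with the highest naive samples above all EAE samples, whereas all CFA samples were at 0.

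The mean share at -2 dpi was 5.39% ± 4.48 (SD, n = 6) in naive mice and 3.00% ± 3.29 (SD, n = 6) in EAE mice, which is at least 1149-fold and at least 639-fold above the mean of the limits in the CFA samples. By edgeR's quasi-likelihood test over 23 families, CFA was below naive (adjusted p = 0.000728, 8.7% of families called) and below EAE (adjusted p = 0.00173, 8.7% of families called). EAE and naive did not pass the test (log2 fold change -1.43, SE 1.95, adjusted p = 1, 0% of families called). The difference from CFA before treatment did not pass exact tests after adjustment over families. The exact permutation test of mean percents gave p = 0.0152 (adjusted p = 0.144) for CFA against naive and p = 0.0606 (adjusted p = 0.384) for EAE against CFA. Its smallest p for groups of 6 without ties is 0.00216. Here all CFA samples and some of the other group were tied at 0, so p could not fall below the values given. With such ties it counts the same splits as Fisher's exact test on presence, so the p values below are not separate support. Fisher's exact test on presence, two-sided, gave p = 0.0152 for 0 of 6 against 5 of 6 (adjusted p = 0.152) and p = 0.0606 for 4 of 6 against 0 of 6 (adjusted p = 0.384), with 0% of families called in either comparison.

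On every later day CFA mice held no count while the other groups had carriers, and the call depended on the test. Naive means lay at least 854-fold, 1962-fold, 2755-fold and 4144-fold at 8, 14, 19 and 29 dpi above the mean limit of CFA samples of the same day. EAE means lay at least 2420-fold, 3583-fold, 1229-fold and 299.8-fold above it on those days. By edgeR's quasi-likelihood test, CFA was below naive on all 5 days with adjusted p between 0.000294 and 0.000728, and below EAE on all 5 days with adjusted p between 0.000196 and 0.00609. The share of all families called was 21.7%, 17.4%, 13% and 8.7% for CFA against naive and 39.1%, 56.5%, 30.4% and 26.1% for EAE against CFA at 8, 14, 19 and 29 dpi.

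The exact permutation test of mean percents, adjusted over families, passed for CFA against naive at 19 dpi (adjusted p = 0.0206, 10.5% of families called) and not at 8, 14 or 29 dpi (adjusted p = 0.576, 0.0576 and 0.123). For EAE against CFA it passed at 14 and 19 dpi (adjusted p = 0.0417 and 0.00779, 36.4% and 33.3% of families called) and not at 8 or 29 dpi (adjusted p = 0.152 and 1). Before adjustment this permutation test gave p = 0.0152 for EAE against CFA at both 8 and 14 dpi and for CFA against naive at 14 dpi. Fisher's exact test on presence gave the same unadjusted p in each of these. Their adjusted values differ through the p of the other families.

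At 29 dpi the EAE call by edgeR rests on mouse 591, the 1 EAE carrier, and without it no EAE count was left (adjusted p = 1). Fisher's exact test on presence passed after adjustment for EAE against CFA at 19 dpi (6 of 6 against 0 of 6, adjusted p = 0.0195, 11.1% of families called) and for CFA against naive at 19 dpi (adjusted p = 0.0411, 5.26% called) and 29 dpi (0 of 5 against 6 of 6, adjusted p = 0.0411, 5.26% called). The call at 29 dpi was lost when any 1 of the 11 samples was left out (adjusted p from 0.0905 to 0.151). The separation stayed complete each time, so the loss came from the smaller groups and the adjustment. It did not pass in the other comparisons, where adjusted p ran from 0.111, for EAE against CFA at 14 dpi (4 of 5 against 0 of 6, 9.09% of families called), to 1. The adjusted p was 1 for CFA against naive at 8 dpi (0 of 6 against 3 of 6), for EAE against CFA at 29 dpi (1 of 6 against 0 of 5) and for EAE against naive at 19 dpi (6 of 6 in both, 4.55% called).

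In naive mice the mean share was higher at 19 and 29 dpi than at -2 dpi, by less than the edgeR test could call. At 8 dpi 3 of 6 carried it, at 0%, 3.66% and 10.0% for the lowest, median and highest. At 14 dpi 5 of 6 carried it, at 0%, 6.36% and 23.7%. At 19 dpi all 6 did, at 7.46%, 14.7% and 31.5%, and at 29 dpi all 6 did, at 6.90%, 11.8% and 31.9%. All 6 samples of 29 dpi lay above the median of -2 dpi, and the 2 groups still overlapped.

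Over these 4 days the means were 4.41% ± 4.91, 8.72% ± 8.34, 17.0% ± 8.52 and 16.9% ± 11.7 (SD, n = 6 each). Against -2 dpi no day passed edgeR's quasi-likelihood test. The log2 fold change was 1.53 (SE 1.95, adjusted p = 0.947, 4.35% of families called) at 19 dpi and 2.06 (SE 1.99, adjusted p = 0.636, 4.35% of families called) at 29 dpi. The exact permutation test of the mean percents gave a difference of 11.6 percentage points at 19 dpi, with p = 0.0108 and an adjusted p of 0.159, and of 11.5 at 29 dpi, with p = 0.0346 and an adjusted p of 0.762.

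EAE mice had their highest shares at 8 and 14 dpi. At 8 dpi 5 of 6 carried the family, at 0%, 10.5% and 23.7% for the lowest, median and highest, with a mean of 12.5% ± 9.13 (SD, n = 6). Without the shallow library of mouse 555 the mean was 15.0% ± 7.56 (SD, n = 5). At 14 dpi 4 of 5 did, and the samples held 0% in mouse 589, 14.6% in mouse 588, 17.4% in mouse 591, 19.9% in mouse 593 and 27.8% in mouse 595, with a mean of 15.9% ± 10.2 (SD, n = 5). The 4 carriers of 14 dpi all lay above the highest EAE sample of 19 dpi, 14.5%, although mouse 588 did so narrowly.

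At 19 dpi all 6 EAE mice carried the family, at 3.38%, 5.71% and 14.5%, with a mean of 7.58% ± 4.36 (SD, n = 6). At 29 dpi 5 of 6 held no count and mouse 591 held 7.33%, from 6923 counts, with a mean of 1.22% ± 2.99 (SD, n = 6). The 5 EAE samples without the family at 29 dpi had totals within 62526 to 97275, the range of the whole group. Against -2 dpi no EAE day passed edgeR's quasi-likelihood test, with adjusted p from 0.52 to 1. The largest fitted value was 2.53 (SE 2.07, adjusted p = 0.52, 8.7% of families called) on the log2 scale at 14 dpi. At 29 dpi it was -1.40 (SE 1.95, adjusted p = 0.779, 4.35% of families called), and without mouse 591 the adjusted p was 0.000539, since all the remaining samples of that day were at 0.

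The mean share of EAE mice lay above that of naive mice at 8 and 14 dpi and below it at -2, 19 and 29 dpi, and the edgeR test called none of these differences. EAE minus naive was 8.09 percentage points (SE 4.23) at 8 dpi and 7.21 (SE 5.69) at 14 dpi, then -9.40 (SE 3.91) at 19 dpi and -15.7 (SE 4.94) at 29 dpi. On the log2 scale of the edgeR fit the differences were 0.50 (SE 1.92, adjusted p = 1, 17.4% of families called), 0.31 (SE 2.00, adjusted p = 1, 13% called), -2.01 (SE 1.98, adjusted p = 0.558, 26.1% called) and -4.89 (SE 2.25, adjusted p = 0.0984, 26.1% called).

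At 29 dpi the groups hardly met. The lowest naive sample held 6.90%, and of the EAE samples only that of mouse 591, at 7.33%, was above it. The call at this day depended on the test. DESeq2 gave an adjusted p of 0.00537 with a log2 fold change of -5.80, and the exact permutation test of mean percents gave p = 0.00649 (adjusted p = 0.0357, 18.2% of families called). Fisher's exact test on presence, 1 of 6 against 6 of 6, gave p = 0.0152 (adjusted p = 0.167, 0% of families called). Without mouse 591 edgeR's adjusted p was 6.67e-05, since all remaining EAE samples of that day were at 0. That value comes from leaving out the 1 EAE carrier and is no further support for a difference. At 19 dpi, when all 12 mice carried the family, the exact permutation test gave p = 0.0238 (adjusted p = 0.0748), and a fit of the 2 groups alone by edgeR gave an adjusted p of 0.0049.

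The change since -2 dpi was also set side by side, because the groups were not equal at the start. By edgeR's interaction contrast the change in EAE minus that in naive mice did not pass the test on any day. The log2 difference was 1.93 (SE 2.73, adjusted p = 0.746, 13% of families called) at 8 dpi, 1.74 (SE 2.78, adjusted p = 0.972, 21.7% called) at 14 dpi, -0.58 (SE 2.71, adjusted p = 1, 13% called) at 19 dpi and -3.47 (SE 2.78, adjusted p = 0.627, 8.7% called) at 29 dpi.

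The EAE mice carry the numbers 550 to 557 in the labels up to 8 dpi and 588 to 595 from 14 dpi, and the deposited sample table gives 1 subject number for each such pair. With that pairing, the share at 29 dpi was above that at -2 dpi in 6 of 6 naive mice and in 1 of 6 EAE mice. Naive mice changed by a mean of 11.5 ± 11.7 percentage points, and EAE mice by -1.78 ± 2.84 (SD, n = 6 in both; exact permutation test, p = 0.00216, the smallest that it allows, adjusted p = 0.0498). At 8 dpi the share was above that at -2 dpi in 5 of 6 EAE mice and in 1 of 6 naive mice, with mean changes of 9.50 ± 6.49 and -0.98 ± 5.60 percentage points (exact permutation test, p = 0.0195, adjusted p = 0.147). The difference in mean change did not pass the same exact permutation test at 14 dpi (p = 0.21, adjusted p = 0.441) or 19 dpi (p = 0.208, adjusted p = 0.571). At 19 dpi the EAE changes lay between 0.0828 and 7.48 percentage points, and 4 of 6 naive mice lay above all of them and 1 below.

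**Figure D2:**
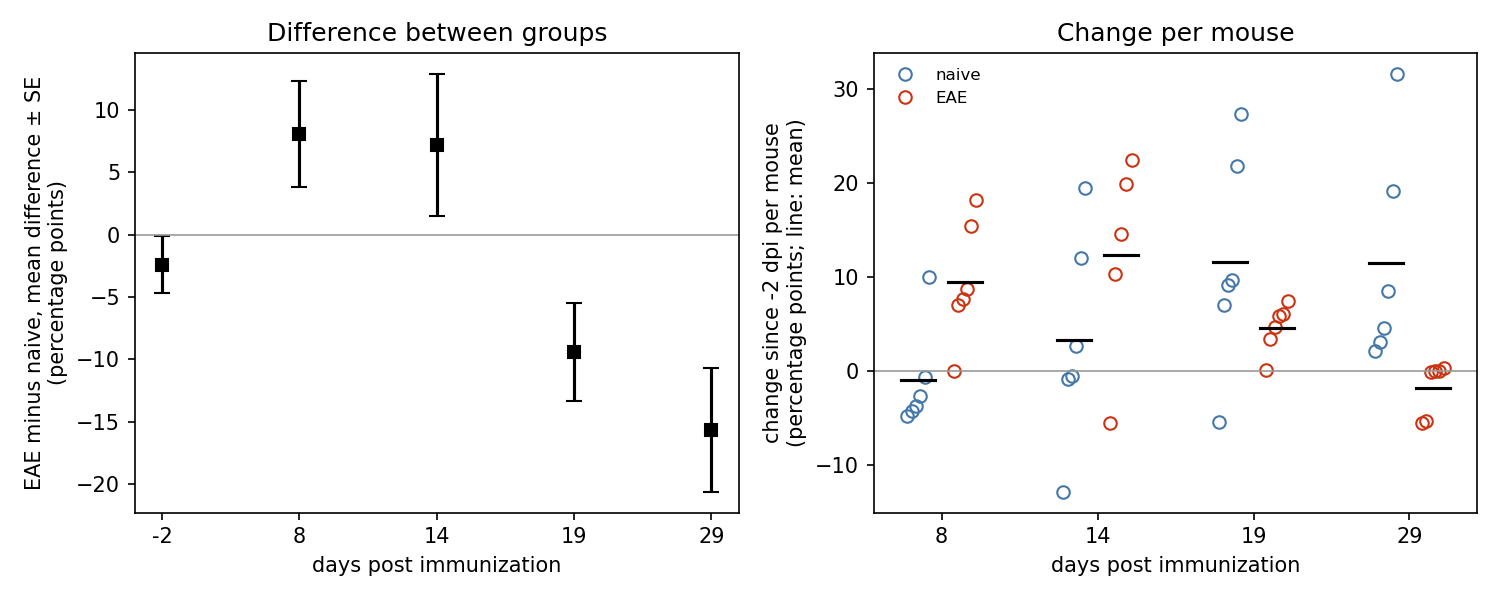
Left, the difference in mean share of Verrucomicrobiaceae between EAE and naive mice in percentage points (y, mean ± SE) by day post immunization (x). Right, the change since -2 dpi of each mouse in percentage points (y) at the 4 later days (x), with black lines for the means. The difference lies above 0 at 8 and 14 dpi and below it at 19 and 29 dpi, and at 29 dpi every naive circle lies above 0.

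Within mice, detection of the family came and went. Carriage here means counts of the family in a sample, and whether a 0 reflects loss of the bacterium was not tested. Of the 6 naive mice, which keep 1 number throughout, all carried the family at some day but only mouse 563 did at all 5, at 7.93%, 7.33%, 7.44%, 14.9% and 12.5% from -2 to 29 dpi. Mouse 559 went from 4.21% to 0%, 23.7%, 31.5% and 7.25%. Mouse 561 went from 12.8% to 9.11%, 0%, 7.46% and 31.9%. Between consecutive days the naive mice showed 4 steps from carriage to no count and 5 steps back. In each of these mice the share at the next sampled day after a 0 was several percent, and no intermediate share near the limit of 3 counts was seen.

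Followed by their subject numbers, all 6 EAE mice carried the family at some day, and only mouse 553, joined there to number 591 from 14 dpi, did so at all 5 days, at 7.01%, 22.5%, 17.4%, 14.5% and 7.33%. EAE mice showed 6 steps from carriage to no count and 3 steps back, and 5 of the 6 mice ended at no count. By the label numbers alone there were 12 EAE mice, of which 11 carried the family at some day and 5 on each day sampled, with 5 steps to no count and 2 back. The 6 CFA mice showed no step in either direction.

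The 38 ASVs held 13 distinct sequences once the primers were removed. The first sequence had 408 bases with a GC content of 54.2%, was found in all 45 carriers and made up 99.98% of the family's counts, 368723 in all. The nearest sequence of another family, Ruminococcaceae, was identical to it at 77.5% of positions. The other 12 sequences, from 13 ASVs, held 58 counts in total, each in 1 sample. Of these 12, 7 could be put together exactly from the left part of 1 more abundant sequence of the table and the right part of another, and all 12 when 1 mismatch was allowed. Counts of the family therefore came from 1 sequence in naive and EAE mice alike, within 58 counts.

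The remaining 25 ASVs were this 1 sequence with different primer ends, because the deposited sequences keep the primers, whose mixed bases allow 72 versions. The 5 ASVs of the family with the highest summed counts, all of them such versions, held 49.4% of the counts, and none of the 25 was found in every carrier. A carrier held a median of 5 versions, with 1 to 10 in single samples.

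Samples differed in the versions they held. Of the 9 reverse-primer ends that the mixed bases allow, 7 were seen, numbered R1 to R7 here by summed count. In 41 of 45 carriers all counts had a single right end, while the left end, the forward primer, took a median of 5 of 6 versions in the same sample. The right end differed between samples. It was R1 in 13 carriers, R2 in 10, R3 in 12, R4 in 5, R5 and R6 in 2 each and R7 in 1, counting the end with most counts where there was more than 1.

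The 4 carriers with more than 1 right end were naive mouse 559 at 14 dpi, naive mouse 561 at 29 dpi and EAE mice 593 and 595 at 14 dpi. Their shares were 23.7%, 31.9%, 19.9% and 27.8%. The right end with most counts outnumbered the next by 1.57, 7.12, 5.63 and 4.29 times. Of the 25 versions, 23 could be made exactly by joining the left end of 1 other version with the right end of another. Each of the 4 samples with more than 1 right end held such a version together with both of its parts. A sample with 1 right end cannot do so by this definition.

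Where all 6 left ends were present, their proportions were close from sample to sample. In the 14 carriers with 1 right end and all 6 left ends, the left ends L1 to L6 took 39.0% ± 1.93, 18.3% ± 0.53, 12.7% ± 1.37, 9.83% ± 0.81, 13.0% ± 0.59 and 7.09% ± 0.48 of the counts (SD, n = 14). In the other 27 carriers with 1 right end, which held fewer left ends, L1 took a median of 51.1% (33.6% to 100%). Elsewhere in the table a single right end was common too. Among 891 pairs of another sequence and a sample with at least 1000 counts, 71.6% had 1 right end and 15.2% had 1 left end, against 90.9% and 6.82% of the 44 such pairs of the Verrucomicrobiaceae sequence.

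**Figure D3:**
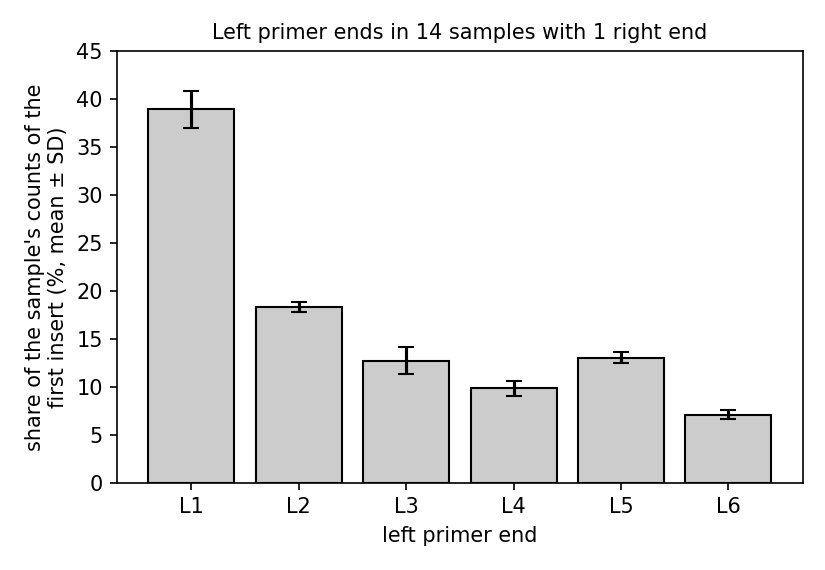
Share of the counts of the most abundant Verrucomicrobiaceae sequence (y, percent, mean ± SD) taken by each of its 6 forward-primer versions (x) in the 14 samples that hold 1 right end and all 6 left ends. L1 takes 39.0% and L6 7.09%, with an SD below 2 percentage points for each.

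The level of the family was also set beside the main right end. Carriers whose main right end was R1, R2 or R3 held a median of 12.0% (2.61% to 31.9%, 35 samples), and those with R4 to R7 a median of 5.71% (0.122% to 11.4%, 10 samples). These groups of samples were formed after the counts were seen, so no test is given. The ends were numbered by summed count, so a higher level with R1 to R3 is partly built in. By single end, the medians for R1 to R7 were 12.3%, 13.5%, 8.98%, 5.27%, 6.64%, 10.1% and 7.81%. The last 3 of these came from 1 or 2 samples each, and R6 lay above R3. The main right end also differed between the groups, and this too was not tested. It was R1, R2 or R3 in 23 of 25 naive carriers and in 12 of 20 EAE carriers. At -2 dpi, before treatment, it was so in 5 of 5 naive and 2 of 4 EAE carriers, at 8 dpi in 3 of 3 and 3 of 5, and at 14 dpi in 4 of 5 and 4 of 4. At 19 dpi it was so in 5 of 6 naive mice, with a mean of 18.9% ± 7.98 (SD), against 7.46% in the other mouse, and in 2 of 6 EAE mice, at 4.76% and 14.5%, against a mean of 6.55% in the other 4. At 29 dpi it was so in all 6 naive carriers and in the 1 EAE carrier. The authors removed chimeric sequences before deposit, with the primers in place. The part of that step in the right ends, in the shares and in the samples without a count was not tested.

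**Figure D4:**
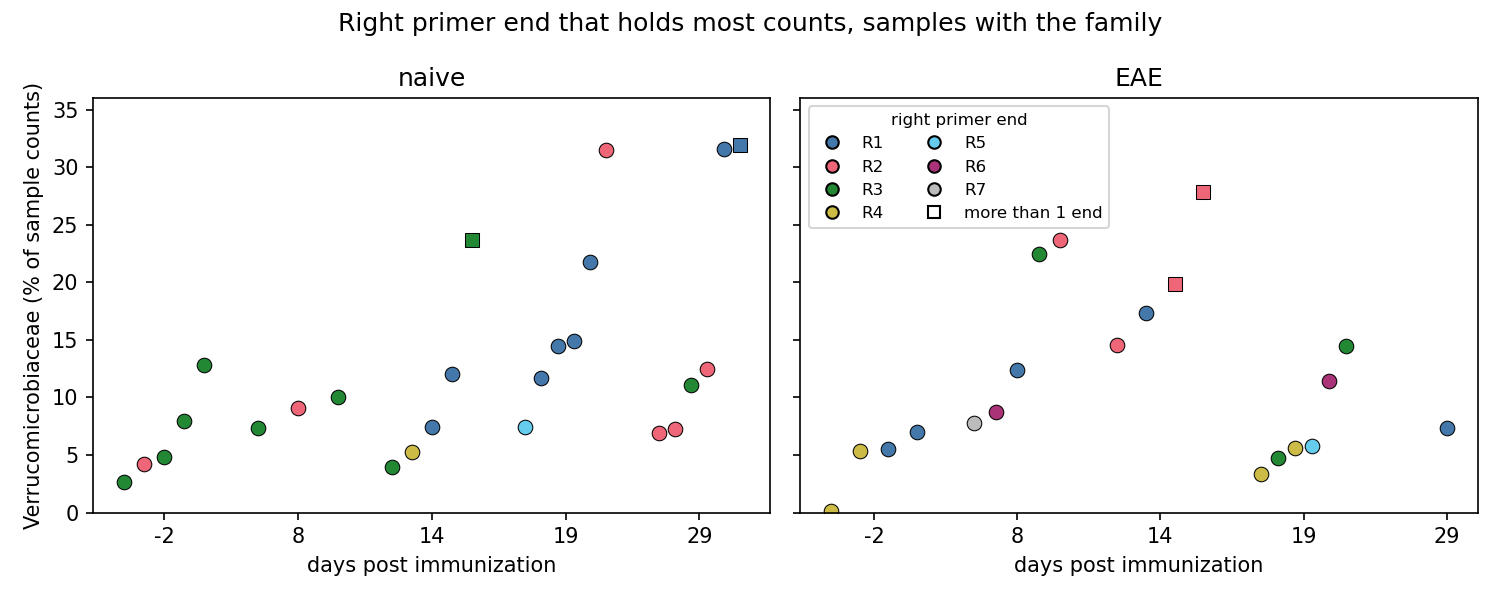
Share of Verrucomicrobiaceae (y, percent of sample counts) in each of the 45 samples with the family, by day post immunization (x) in naive and EAE mice. Colours give the right primer end with most counts and squares mark the 4 samples with more than 1 right end. In the EAE samples of 19 dpi 4 of 6 carry R4, R5 or R6, and in the naive samples of that day 5 of 6 carry R1 or R2.

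Tested as deposited, the ASVs of the family gave calls that their sum did not. Of the 38 ASVs, 23 were counted in at least 3 samples and entered the edgeR fit of 648 ASVs. For EAE against naive, 9 of the 23 were called at 1 or more of the 5 days, where 8.02% of all ASVs tested were. Of these 9, each was called lower in EAE at some day and 4 also higher at another. They were called at 14 dpi (3 ASVs), 19 dpi (9 ASVs) and 29 dpi (4 ASVs), and none at -2 or 8 dpi, where 15 and 10 of 23 had an unadjusted p below 0.05. For EAE against CFA 10 of 23 were called, all higher in EAE (12.5% of all ASVs), and for CFA against naive 9 of 23, all lower in CFA (7.87% of all ASVs). These 23 ASVs share 1 sequence, so their counts are not separate observations of the family.

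With the primer versions merged into 1 sequence, EAE against naive was not called at 14 dpi (adjusted p = 1) or 19 dpi (adjusted p = 0.547), and was called at 29 dpi by edgeR (log2 fold change -4.89, SE 1.97, adjusted p = 0.0486), a day with 72 of 202 merged sequences called. Against CFA the merged sequence was called on all 5 days. Per day, 1 to 30 of 202 merged sequences were called for EAE against CFA and 5 to 26 for CFA against naive. Without the filter on rare ASVs the edgeR test called 0 of all 2295 ASVs in each of the 3 pairs of treatments, and so none of the 38.

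Other genera that live on the sugars of mucin were followed from a list of 7 names, of which Barnesiella, Muribaculum, Prevotella and Ruminococcus were in the taxonomy. By the edgeR test over 65 genera, 1 of the 4 was called in each pair of treatments at 1 or more days, where 16.9% of genera were called for EAE against naive, 30.8% for EAE against CFA and 27.7% for CFA against naive. The genus was Muribaculum in all 3. It shares with Akkermansia the absence from all 29 CFA samples, but was found in 11 samples only.

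Muribaculum was present in 2 of 6 EAE mice at -2 dpi, at a mean of 2.44% ± 4.18 (SD, n = 6). It was present in 3 of 6 EAE mice at 19 dpi and 4 of 6 at 29 dpi, at means of 2.59% ± 3.41 and 5.11% ± 6.32 (SD, n = 6), with no count in naive mice on those days (edgeR, adjusted p = 0.0365 and 0.0193). Its lower calls rest on 1 carrier in 6 naive mice, at -2 dpi against CFA (adjusted p = 0.0422) and at 8 dpi against EAE (adjusted p = 0.0438) and CFA (adjusted p = 0.0408). Prevotella, which splits many plant and host polysaccharides, was not called. It held 15.4% ± 4.40 in naive, 14.3% ± 4.10 in CFA and 11.4% ± 5.65 in EAE mice at -2 dpi (SD, n = 6).

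Of 4 genera known as partners of Akkermansia in cross-feeding cultures, Anaerostipes and Eubacterium, which make butyrate, were found. Anaerostipes was present in all 29 CFA samples at mean shares of 4.27% to 6.62%, and in none of the 18 naive samples of -2, 8 and 14 dpi. It was higher in CFA than in naive mice at -2, 8 and 14 dpi by the edgeR test on genera, with adjusted p of 0.0019, 0.00108 and 0.00234. It was also called in EAE against naive mice on these 3 days, with adjusted p of 0.0225, 0.012 and 0.00443, in 1, 5 and 3 EAE mice respectively. Eubacterium was present in 75 of 88 samples and was not called in any pair.

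The shares of other families went only weakly with that of Verrucomicrobiaceae. As a description over 30 naive and 29 EAE samples, in which the same mice recur, Spearman's rho averaged over the 2 treatments was highest for Prevotellaceae (0.239), Porphyromonadaceae (0.195) and Enterococcaceae (0.18, present in 3 of these samples). It was lowest for Muribaculaceae (-0.321), Lactobacillaceae (-0.225) and Erysipelotrichaceae (-0.223). Lactobacillaceae was the largest family in naive mice on all 5 days, and the value for it turned to 0.124 on the centred log ratio scale. On that scale Muribaculaceae was at -0.131, Erysipelotrichaceae at -0.326, and Peptococcaceae was lowest at -0.338.

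Among EAE mice of 1 day, the share was set against body weight and clinical score, with 5 relations in all. None passed. The clinical score at 19 dpi ran from 0 to 4 and gave Pearson's r = -0.65 (exact permutation p = 0.178, adjusted p = 0.889) and Spearman's rho = -0.794 (exact permutation p = 0.1, adjusted 0.5) over 6 mice, and r = -0.857 without the 2 mice farthest from the median share. Body weight gave r = -0.269 at 8 dpi (exact permutation p = 0.61), 0.0755 at 19 dpi (exact permutation p = 0.886) and -0.181 at 29 dpi (exact permutation p = 0.667), with rho of -0.314, 0.0857 and -0.131 (exact permutation p = 0.564, 0.919 and 1) and an adjusted p of 1 for each. Without the 2 farthest mice the first 2 values of r were 0.482 and 0.782. The score at 29 dpi gave r = -0.0382 (exact permutation p = 1, adjusted p = 1), and rho was 0 within rounding. At 29 dpi these values rest on mouse 591 alone, the 1 carrier, and no r can be given without it.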

How the data were processed

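V3-V4 amplicons of the 16S rRNA gene were sequenced on an Illumina MiSeq. The authors filtered, merged and resolved the reads with DADA2, removed chimeric sequences by the consensus method and named the ASVs from a curated taxonomy table. The deposited values are raw counts per ASV and sample, with the primers left on the sequences. The sample table deposited by the authors gives the subject number, the clinical score and the body weight. Sequencing of the water controls was not analysed here. Groups and mouse numbers come from the labels.

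Counts were summed by family. A family entered the tests when 3 or more samples had counts of it, with edgeR (version 4.0.16) quasi-likelihood fits in R (version 4.3.3), in 1 fit of 15 groups with TMMwsp factors from genus counts and Benjamini-Hochberg adjustment over the families of a comparison, at a threshold of 0.05. ASVs and genera were tested in the same way. Fold values against groups without counts are given as bounds, since fitted ones depend on the prior count. Presence was tested by Fisher's exact test, percents by exact permutation (numpy 2.4.6, scipy 1.17.1), all two-sided. Exact tests between groups of 1 day rest on 1 sample per mouse. The edgeR and DESeq2 fits took all samples as separate, although mice recur over the days. Their estimate of spread therefore pools repeated samples of the same mice. No p-value covers the spread between cages, which the labels do not give. DESeq2 (version 1.42.0, poscounts size factors), total counts as the only scaling, counts without Lactobacillaceae, no filter, other minimum counts and leaving out each sample were alternatives. Naive mice keep their number over the days, so samples of 1 number come from 1 animal, and EAE mice were paired by subject number of the sample table. Named were the family, its 5 leading ASVs, listed genera and the 3 most and 3 least alike families, besides Peptococcaceae for its absence from CFA samples. The family, lists and tests were chosen with earlier results of these data known. The scripts were tested on simulated data. For the edgeR fit these were ASV counts with a spread (dispersion) of 1, where the fit of families had a median of 5.51. That test therefore does not cover the spread of the family counts.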

Additional observations from a re-analysis of the deposited data

Results flagged for a closer look

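Among the 10 groups of naive and EAE mice with counts of the family, 1 sample stood apart from the others of its group by Dixon's ratio of gap to range. EAE mouse 591 at 29 dpi held 7.33% of its counts in Verrucomicrobiaceae, while the other 5 EAE mice of that day held none. With 5 values at 0 the ratio is 1 for any value above 0, so this says only that the group held 1 carrier, and the usual rate of about 1 flag in 20 groups by chance does not apply. By the sample table this mouse, numbered 553 up to 8 dpi, was the 1 EAE mouse with the family at all 5 days.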

How the results depend on the processing

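Calls against CFA held in edgeR and DESeq2 under every scaling and filter and with 1 right primer end per sequence, an alternative chosen after the data were seen. They did not all hold in the exact permutation test of mean percents, where adjusted p was 0.384 (EAE) and 0.144 (naive) at -2 dpi, 0.152 and 0.576 at 8 dpi, 0.0576 (naive) at 14 dpi, and 1 and 0.123 at 29 dpi. With the groups compared alone in the fit, EAE against CFA at -2 dpi had an adjusted p of 0.0558, and EAE against CFA at 29 dpi left too few carriers to be fitted. For EAE against naive, calls appeared at 19 dpi with those groups alone (adjusted p = 0.0049) and at 29 dpi with DESeq2 (0.00537) and the permutation test (0.0357). The exact permutation test of the change in percent per mouse since -2 dpi gave an adjusted p of 0.0498 at 29 dpi. It differs from the edgeR interaction (0.627) in test, scale and pairing, and these cannot be told apart. The mouse as a replicate block in edgeR was run for naive mice on 4 days and EAE mice at 8 dpi against -2 dpi, and changed none of these 5 calls (naive at 29 dpi, adjusted p = 0.766).

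Leaving out each sample in turn changed the edgeR result at 29 dpi when EAE mouse 591 was the one left out, which left that EAE group wholly at 0. Adjusted p ranged from 6.67e-05 to 0.158 for EAE against naive, 0.00415 to 1 against CFA, 0.000539 to 1 against -2 dpi and 0.000359 to 0.965 for the change between EAE and naive. For presence, Fisher's exact test ranged from 0.0433 to 0.152 for CFA against naive at -2 dpi (passing without naive mouse 560), 0.0433 to 0.303 for EAE against CFA at 8 dpi (without EAE mouse 555), 0.0349 to 0.349 at 14 dpi (without EAE mouse 589), 0.0411 to 0.144 for CFA against naive at 14 dpi (without naive mouse 561), 0.0476 to 0.167 for EAE against naive at 29 dpi (without EAE mouse 591) and 0.0905 to 0.151 for CFA against naive at 29 dpi, where leaving out any sample ended the call (0.135 without naive mouse 562 or 563). In this last comparison the groups stayed fully separated, so group size and the adjustment ended the call.

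With primer versions merged, the family's 1 tested sequence was called in each pair of treatments at 1 or more days. Of all 202 merged sequences, 78 were called for EAE against naive, 38 for EAE against CFA and 33 for CFA against naive. Without the filter on rare ASVs, 0 of all 2295 ASVs were called in any pair. DESeq2 called 2 of 4 mucin glycan users for CFA against naive in place of 1. It called 35 of 61 genera in that pair, where edgeR called 18 of 65. With 1 mismatch allowed, 12 minor sequences could be joined in place of 7. The mean rho of Lactobacillaceae turned to 0.124 on the centred log ratio scale. The cause of these differences was not tested. Groups of 5 or 6 mice limit the exact tests, whose smallest p is 0.00216 before adjustment, and higher where mice of both groups were tied at 0.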
